A study of Homo sapiens with 6 samples.

Results

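The genes of the minichromosome maintenance (MCM) family were examined in RKO, an established cell line of human colon carcinoma. In all, 10 genes were taken of the 28278 gene symbols in the count tables: MCM2, MCM3, MCM4, MCM5, MCM6 and MCM7, the subunits of the MCM2-7 hexamer, and MCM8, MCM9, MCM10 and MCMBP. They were chosen by gene symbol, and MCM6 was set against the other subunits because its difference between the groups in these same libraries was already known. Values from that contrast are therefore given for the family as a description, with no test. One group, shTRIM21, was 3 libraries of cells with a lentiviral short hairpin RNA against TRIM21, an E3 ubiquitin ligase, labelled as TRIM21 knockdown. The other, shControl, was 3 libraries of cells with a lentiviral scrambled hairpin, labelled as WT. All cells had been kept in 5 µg/ml puromycin, added 36 h after infection, for 2 to 3 weeks, and no untransduced cells were analysed here. The sample titles call the replicates biological. The labels name no second hairpin for either arm and do not say whether the replicates came from separate infections. The p-values therefore measure only the spread between these libraries, which may not include that between infections.

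The MCM2-7 hexamer is the motor of the replicative helicase. It is loaded onto DNA at replication origins in G1 by the origin recognition complex with CDC6 and CDT1, and it is activated in S phase when CDC45 and the GINS complex join it. Each of its subunits is present in a single copy, and the hexamer is commonly present in excess over the origins that fire. MCM8 and MCM9 form a separate helicase of recombination repair, MCM10 helps to activate the loaded helicase, and MCMBP binds MCM subunits and is known for keeping newly made ones stable. Genes of this family are textbook targets of E2F transcription factors.

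Total counts per library were 33499827 to 44466137, and 27808151 to 29100459 without the 37 ribosomal RNA rows, which took 14.7% to 36.9% of the counts. TRIM21 was lower in shTRIM21, with 299, 271 and 297 counts against 459, 421 and 343 (log2 fold change -0.54, SE 0.12; edgeR quasi-likelihood test, adjusted p = 0.00424), a call lost with library sizes alone as scaling (adjusted p = 0.197, the highest over its alternatives, which began at 0.000399). All 5 epithelial markers passed the filter on low counts, at a sum of 4604 to 4847 CPM in shTRIM21 and 5936 to 6602 CPM in shControl, with KRT8, KRT18 and KRT19 called lower and CDH1 higher. The intestinal marker CDX2 had 776 to 934 counts, while the intestinal markers CDX1, LGR5 and MUC2 and the fibroblast markers COL1A2, DCN and LUM had at most 6 counts in any library. Summed fibroblast markers were at 10.4 to 10.8 CPM in shTRIM21 and 6.12 to 9.19 CPM in shControl, mostly COL1A1. Summed immune markers were at 6.13 to 6.82 and 7.34 to 8.61 CPM, mostly CD68, and PTPRC had at most 1 count. Summed endothelial markers were at 0.343 to 0.773 and 0.435 to 0.718 CPM, with CDH5 at 0. The part of these marker levels in the results was not tested.

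The start regions of MCM6 and of 3 partner subunits are shown so that the E2F words of the gene that was higher can be set beside those of genes that were not. Start regions from RefSeq (GRCh38.p14), 250 bases before to 50 after the start, were searched for 8 of the 10 genes. Those of MCM4 and MCM5 were not searched. Capitals mark matches, on either strand, to the 8-base E2F words TTTCCCGC, TTTCGCGC, TTTGCCGC and TTTGGCGC. For MCM7 the most upstream of the listed starts is shown. The regions are MCM6 at chr2:135876394-135876693 (minus strand), MCM2 at chr3:127598161-127598460 (plus strand), MCM3 at chr6:52284693-52284992 (minus strand) and MCM7 at chr7:100101348-100101647 (minus strand).
MCM6: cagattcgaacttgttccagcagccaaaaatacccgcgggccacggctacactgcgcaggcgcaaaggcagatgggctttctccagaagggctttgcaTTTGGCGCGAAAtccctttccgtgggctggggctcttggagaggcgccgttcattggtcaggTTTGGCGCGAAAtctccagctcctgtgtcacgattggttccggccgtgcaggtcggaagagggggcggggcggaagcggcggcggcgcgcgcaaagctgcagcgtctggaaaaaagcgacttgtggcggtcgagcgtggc
MCM2: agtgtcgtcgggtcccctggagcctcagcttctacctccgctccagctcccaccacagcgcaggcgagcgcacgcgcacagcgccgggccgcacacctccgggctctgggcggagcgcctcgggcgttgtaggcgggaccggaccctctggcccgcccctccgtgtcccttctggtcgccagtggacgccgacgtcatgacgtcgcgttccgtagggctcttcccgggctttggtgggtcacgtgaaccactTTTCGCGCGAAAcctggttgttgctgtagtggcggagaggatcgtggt
MCM3: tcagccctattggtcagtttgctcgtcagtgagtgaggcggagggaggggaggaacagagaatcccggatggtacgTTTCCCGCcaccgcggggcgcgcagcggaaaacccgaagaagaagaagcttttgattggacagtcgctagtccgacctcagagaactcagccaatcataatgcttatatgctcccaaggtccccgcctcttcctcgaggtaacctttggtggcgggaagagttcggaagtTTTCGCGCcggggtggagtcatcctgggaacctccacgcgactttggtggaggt
MCM7: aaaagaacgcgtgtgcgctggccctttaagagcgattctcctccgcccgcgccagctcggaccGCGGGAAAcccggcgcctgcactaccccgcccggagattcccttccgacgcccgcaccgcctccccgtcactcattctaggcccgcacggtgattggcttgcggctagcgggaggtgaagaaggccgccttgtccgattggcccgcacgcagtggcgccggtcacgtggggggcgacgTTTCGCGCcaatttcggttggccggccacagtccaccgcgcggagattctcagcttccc

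MCM6 held 4 matches, the most among the start regions searched, which did not include those of MCM4 and MCM5. They form 2 pairs, each a match on one strand overlapping a match on the other, beginning at -152 and -90 from the start. MCM2 held 1 such overlapping pair just after its start, MCM3 held matches at -174 and -4, and MCM7 at -187 and -9. MCM8 held 1 match and MCMBP 1, at the more downstream of its listed starts, so that 6 of the 8 genes, and 6 of their 11 listed start regions, had at least one, against 3.31% of all 35116 start regions of this length and 4.79% of the 16278 that belong to tested genes. MCM9 and MCM10 held none of these words in the window. The CCAAT box, searched on both strands, was found in MCM3, MCM6, MCM7, MCM8, MCM9 and MCM10, and in 34.6% of all start regions. A match is a run of letters and does not show that a factor binds there.

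MCM6 encodes a subunit of the hexamer's ATPase ring. Its counts were 4662, 4605 and 4314 in shTRIM21 and 2166, 2406 and 2307 in shControl. As CPM, counts scaled to library sizes corrected by TMM factors, these are 124, 118 and 114 against 57.4, 65.5 and 63.7. Every shTRIM21 library lay far above every shControl library, and the gap between the groups was several times the range within either. The mean was 119 ± 5.21 CPM against 62.2 ± 4.24 CPM (SD, n = 3 each), 1.91-fold higher in shTRIM21 (log2 fold change 0.93, SE 0.062, 95% interval 0.80 to 1.06). Across the whole table, 290 of 15131 tested genes had a larger log2 fold change than MCM6, and 34 of these had a mean of at least 5 CPM in shTRIM21.

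None of the other 5 subunits was called higher, and all 5 had log2 fold changes below 0. MCM2 stood at 248, 252 and 240 CPM in shTRIM21 and 276, 283 and 280 CPM in shControl, 1.13-fold lower (log2 fold change -0.18, SE 0.049). MCM7 is the most abundant of the family and its introns host the miRNA genes MIR25, MIR93 and MIR106B. It stood at 419, 402 and 389 CPM against 460, 472 and 450 CPM, 1.14-fold lower (log2 fold change -0.19, SE 0.052). Both groups were tight for these genes and did not overlap.

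MCM5, which forms with MCM2 the gate through which the ring opens, stood at 181, 185 and 169 CPM in shTRIM21 and 204, 195 and 193 CPM in shControl (log2 fold change -0.15, SE 0.053). MCM4 stood at 288, 275 and 278 CPM against 297, 315 and 306 CPM (log2 fold change -0.13, SE 0.050). MCM3 stood at 231, 234 and 231 CPM against 242.4, 246.7 and 249.1 CPM (log2 fold change -0.087, SE 0.048). The libraries of the groups did not overlap for these subunits either, but the differences were small, from 1.06-fold for MCM3 to 1.11-fold for MCM5, and none of the 3 was called. For MCM3 the 95% interval, -0.19 to 0.015, includes no change.

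**Figure D1:**
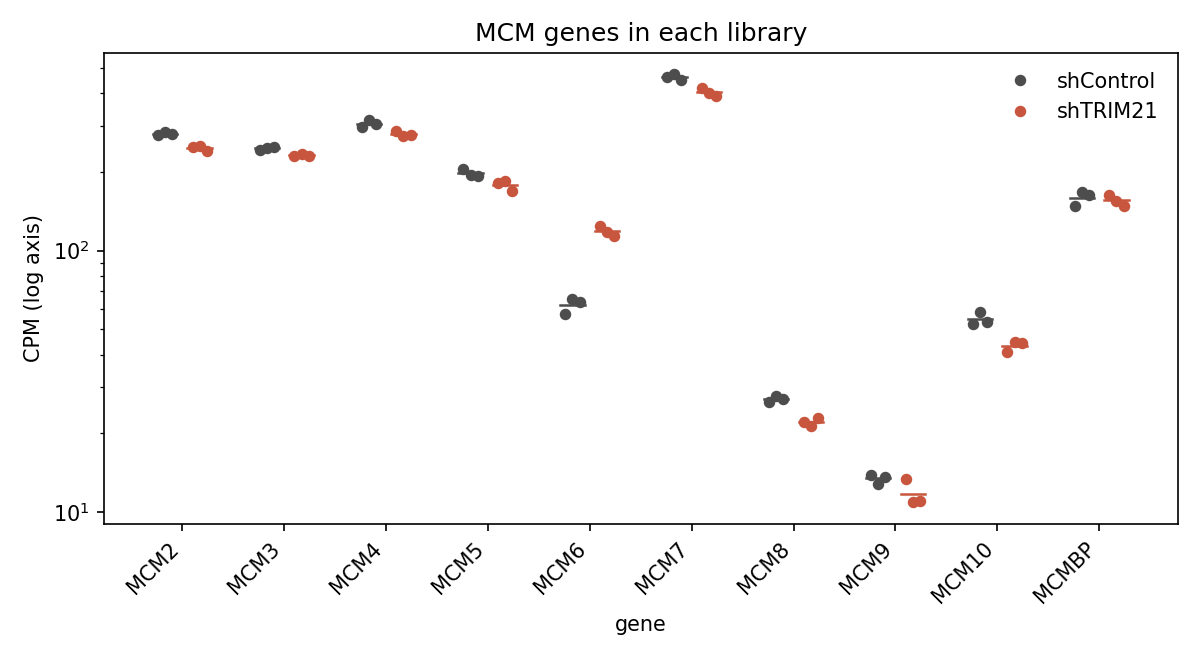
CPM of each of the 10 MCM genes (log axis) in the 3 shControl libraries (grey) and the 3 shTRIM21 libraries (red), with short lines at the group means. The MCM6 points of shTRIM21 lie at 114 to 124 CPM, above those of shControl at 57.4 to 65.5 CPM, while the shTRIM21 points of MCM2, MCM3, MCM4, MCM5, MCM7, MCM8 and MCM10 lie below all shControl points.

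Outside the hexamer, MCM10 had the lowest log2 fold change of the family. It stood at 40.7, 44.6 and 44.1 CPM in shTRIM21 and 52.3, 58.2 and 53.4 CPM in shControl, 1.27-fold lower (log2 fold change -0.34, SE 0.065). MCM8 stood at 22.1, 21.2 and 22.9 CPM against 26.4, 27.7 and 27.02 CPM, 1.23-fold lower (log2 fold change -0.29, SE 0.071). The groups did not overlap for either gene. MCM9, the partner of MCM8, was the least abundant of the family, with 418 to 499 counts in shTRIM21 and 469 to 523 in shControl. The MCM9 groups overlapped at 13.3, 10.9 and 11.04 CPM against 13.9, 12.8 and 13.6 CPM (log2 fold change -0.19, SE 0.10, 95% interval -0.41 to 0.021). MCMBP overlapped fully, at 164, 155 and 149 CPM against 148, 168 and 163 CPM (log2 fold change -0.037, SE 0.059, 95% interval -0.16 to 0.090).

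All 10 genes passed the filter on low counts. With genes called at an adjusted p under 0.05 over all tested genes (edgeR quasi-likelihood test), 1 was called higher, MCM6, and 4 were called lower, MCM2, MCM7, MCM8 and MCM10. Of all tested genes 9.77% were called higher and 11.0% lower, 20.8% in all. The groups did not overlap for 8 of the 10 genes, where they did not overlap for 37.7% of all tested genes. The median log2 fold change of the family was -0.17, against 0.0054 over all tested genes. Because the family was proposed with these values known, the counts are given without a test. RNA was taken from whole cultures, so a lower level of S-phase genes from fewer cells in that phase and from less RNA per cell cannot be told apart.

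**Figure D2:**
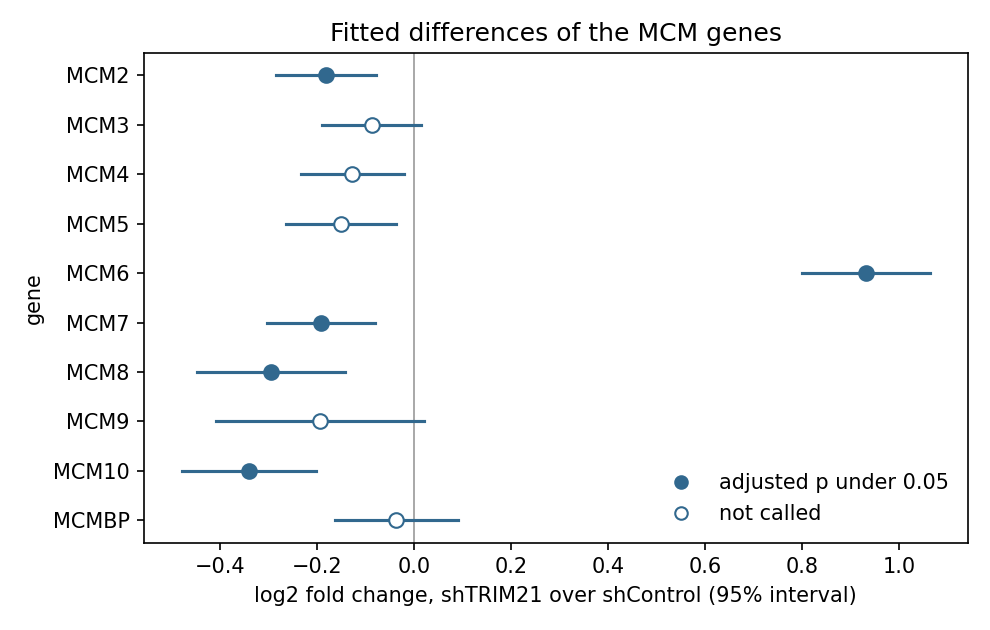
Log2 fold change of each MCM gene, shTRIM21 over shControl, as fitted by edgeR, with the 95% interval as a line; filled points are genes called at an adjusted p under 0.05. MCM6 is at 0.93 and the other 9 genes lie between -0.34 and -0.037.

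The lower calls were less firm than that of MCM6. MCM6 was called higher in all 15 alternative settings. Without shTRIM21 replicate 2 only 1 gene, MCM10, was called lower, and without shControl replicates 1 and 3, the libraries richest in ribosomal RNA, 2 were, MCM8 and MCM10. The log2 fold changes were about as large or larger in these smaller sets, at -0.20 and -0.21 for MCM2, -0.20 and -0.23 for MCM7 and -0.28 and -0.34 for MCM8. With upper-quartile factors 3 were called lower. MCM2 lost its call there (log2 fold change -0.14; edgeR adjusted p = 0.0503) and MCM7 kept it narrowly (edgeR adjusted p = 0.0484). With library sizes alone as scaling 0 were called lower. That setting moved the median of all tested genes to 0.22 and turned MCM2, MCM3, MCM4, MCM5, MCM7, MCM9 and MCMBP above 0, the highest of them MCMBP at 0.17, still below that median.

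The gap between MCM6 and its partner subunits did not depend on the scaling, since a scaling factor cancels within a library. In log2 CPM, MCM6 minus the mean of the other 5 subunits was -1.08, -1.15 and -1.14 with the TRIM21 hairpin and -2.31, -2.14 and -2.16 with the scrambled one. The mean of these differences was -1.12 ± 0.038 in shTRIM21 and -2.20 ± 0.092 in shControl (SD, n = 3 each). In the fit, the log2 fold change of MCM6 exceeded the mean of the other 5, -0.15, by 1.08. Over all alternatives, leaving out any 1 library among them, this excess ran from 1.02 to 1.11.

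Levels of different genes were compared per kilobase of transcript, using 1 GENCODE 29 transcript per gene. On this scale MCM6 was the lowest subunit of the hexamer in every library of both groups. In shControl MCM7 stood at 156 ± 3.84, MCM2 at 77.2 ± 1.02, MCM3 at 76.7 ± 1.06, MCM4 at 73.1 ± 2.20, MCM5 at 55.9 ± 1.66 and MCM6 at 16.6 ± 1.14 CPM per kb (SD, n = 3). MCM2 and MCM3 overlapped, and MCM4 lay slightly below both in every shControl library, its highest value 75.3 and the lowest of MCM3 75.6 CPM per kb. MCM7 lay above these 3 and MCM5 below them in each library. MCMBP, at 38.3 ± 2.51, lay between MCM5 and MCM6. MCM10, at 17.3 ± 0.992, overlapped MCM6, and MCM8 and MCM9 were far lower at 3.61 ± 0.0876 and 2.63 ± 0.114 CPM per kb. The order of MCM2, MCM3 and MCM4 depended on the length used. Per kb of coding length the shControl means were 118 for MCM4, 103 for MCM2, 96.2 for MCM3 and 89.8 for MCM5. MCMBP stood at 82.9, MCM6 at 25.2 and MCM10 at 20.8 on that scale.

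In shTRIM21 MCM7 was again the highest and MCM5 and MCM6 the lowest subunits of the hexamer. Per kb of transcript MCM3 lay above MCM2 and MCM4, which overlapped. Per kb of coding length MCM4 was above both, at a mean of 108 against 91.0 for MCM2 and 90.6 for MCM3. MCM6 stood at 31.7 ± 1.40 CPM per kb of transcript, above MCM10 at 13.7 ± 0.670 and still below MCMBP at 37.3 ± 1.798 (SD, n = 3). MCM5, the next subunit up, was 3.77, 3.15 and 3.21 times as high as MCM6 in the shControl libraries and 1.54, 1.66 and 1.56 times as high in the shTRIM21 libraries. MCM6 made up 3.65% ± 0.217 of the summed per-length level of the hexamer's genes in shControl and 7.45% ± 0.162 in shTRIM21 (SD, n = 3), where equal levels would give each subunit the same share. With coding length in place of transcript length the shares were 3.91% and 7.95%. The exons that the authors counted over are not known here, so the levels between genes depend on the transcript chosen, while the ratio between groups does not.

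**Figure D3:**
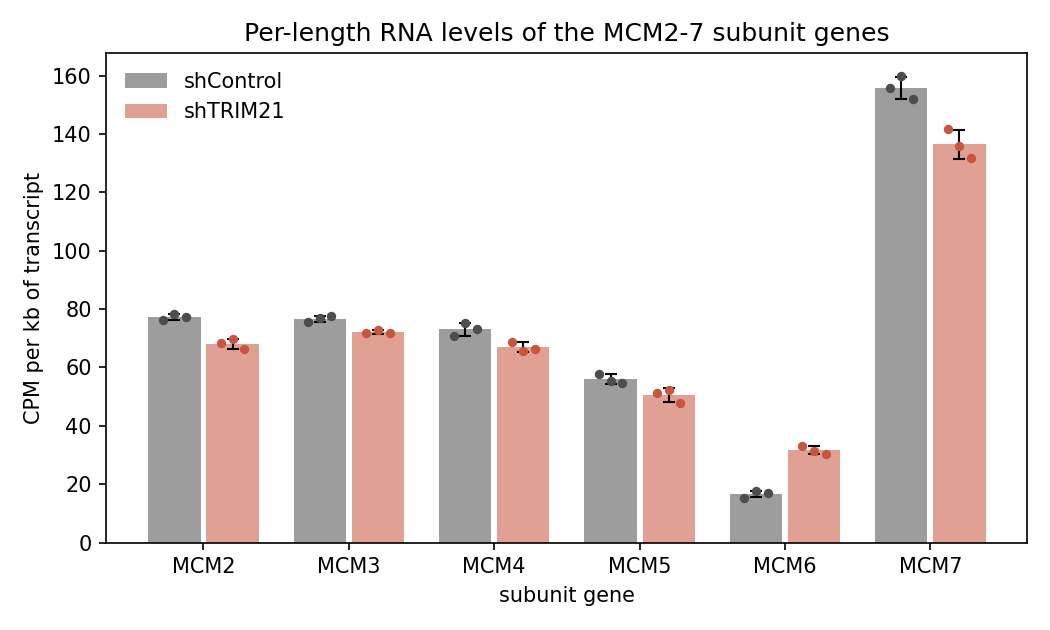
CPM per kb of transcript for the 6 hexamer subunit genes; bars are means, error bars SDs and points the 3 libraries of each group (shControl grey, shTRIM21 red). MCM6 is the shortest bar in both groups, 16.6 in shControl and 31.7 in shTRIM21, and the other subunits are slightly lower in shTRIM21.

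The genes around the family's loci were read for a shared local change. MCM6 lies at chr2:135839626-135876443 and no annotated gene overlaps it. The neighbour UBXN4, 54570 bases away on the side of lower coordinates, had a log2 fold change of 0.11 (SE 0.055; edgeR adjusted p = 0.188) and was not called. PRKDC, which starts next to MCM4, was at -0.13 (SE 0.061) and TPRA1, which lies 180 bases from MCM2, at -0.14 (SE 0.10). AP4M1, which overlaps MCM7 on the annotation, was at 0.15 (SE 0.094), and ASF1A, which lies within the span of MCM9, at 0.16 (SE 0.092). None of these 4 was called. The strand setting of the authors' counting is not known, so reads of MCM7 and AP4M1, of MCM9 and ASF1A, and of MCM8 and MCM8-AS1 may be shared. MCM8-AS1 held at most 19 counts and MIR25 at most 5.

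Among all 23 tested neighbours of the 10 genes, 4 were called higher, C6orf141, PAQR8, RASD2 and PHYH, and 1 lower, HMOX1. Of all tested genes 9.77% were called higher and 11.0% lower, and both directions together, 20.8%, are near the share of the neighbours. Mean levels of the 4 higher genes were low, from 3.71 CPM for RASD2 to 8.91 CPM for PAQR8 in shTRIM21. The log2 fold changes of the higher ones were 0.64 (SE 0.15) for C6orf141, 0.74 (SE 0.12) for PAQR8, 1.16 (SE 0.24) for RASD2 and 0.40 (SE 0.12) for PHYH, and that of HMOX1, a heme-degrading enzyme, was -0.25 (SE 0.068). Their edgeR adjusted p-values ran from 0.000762 for PAQR8 to 0.0305 for PHYH. They lie beside MCM3, MCM5 and MCM10, the nearest of them HMOX1 at 5933 bases from MCM5 and the farthest C6orf141 at 2702099 bases from MCM3.

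Of 34 genes whose products load, activate and unload the helicase, all tested, 1 was called higher and 5 lower. This share is near the 20.8% called among all tested genes. The median log2 fold change of the list was -0.073, and 29 of 34 were below 0, against 7426 of all 15131 tested genes. ORC1, the subunit of the origin recognition complex that varies over the cell cycle, fell from 41.1 ± 2.24 to 33.5 ± 0.617 CPM (SD, n = 3; log2 fold change -0.29, SE 0.065; edgeR adjusted p = 0.00502). CDC45, which joins the hexamer to make the active helicase, fell from 28.6 ± 0.450 to 22.4 ± 1.46 CPM (log2 fold change -0.35, SE 0.073; edgeR adjusted p = 0.00353). CLSPN, a checkpoint mediator that travels with the replication fork, fell from 51.6 ± 3.44 to 40.8 ± 2.89 CPM (log2 fold change -0.34, SE 0.070; edgeR adjusted p = 0.00353). These changes were of the size seen for MCM10 and MCM8.

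UFD1 and NPLOC4, cofactors of the VCP segregase that takes the helicase off DNA, were called lower at -0.19 (SE 0.066; edgeR adjusted p = 0.0499) and -0.15 (SE 0.049; edgeR adjusted p = 0.037). ORC5 was the one gene of the list called higher, at 0.25 (SE 0.074; edgeR adjusted p = 0.0244). The calls of UFD1, NPLOC4 and ORC5 were each lost when single libraries were left out: for UFD1 any but shControl replicate 1, for NPLOC4 either of shTRIM21 replicates 1 and 2 or of shControl replicates 1 and 3, and for ORC5 the same 4. The log2 fold changes without them ran from -0.23 to -0.15 for UFD1, from -0.17 to -0.14 for NPLOC4 and from 0.21 to 0.28 for ORC5. CDC45 lost its call without shControl replicates 1 and 3 together (log2 fold change -0.35; edgeR adjusted p = 0.0501). With upper-quartile factors 3 of the list were called lower, UFD1 (log2 fold change -0.15) and NPLOC4 (-0.11) no longer among them. With library sizes alone none of the list was called lower. Without shTRIM21 replicate 1, shTRIM21 replicate 2 or shControl replicate 3, 3 genes of the list were called, all lower.

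Of 12 tested E2F and RB family genes, 2 were called lower and 0 higher, again near the 20.8% of all tested genes. E2F8, a repressor E2F that is itself made in S phase, fell from 25.5 ± 1.25 to 18.02 ± 0.501 CPM (SD, n = 3; log2 fold change -0.50, SE 0.076; edgeR adjusted p = 0.000316). With library sizes alone its log2 fold change was -0.30 and its call was lost (edgeR adjusted p = 0.224), and it was called in the other 14 alternatives. E2F5 fell from 7.40 ± 0.735 to 5.66 ± 0.507 CPM (log2 fold change -0.39, SE 0.13; edgeR adjusted p = 0.0414), a call lost in 8 of 15 alternatives. General markers of cycling cells were mixed. CCNA2 was called lower at -0.26 (SE 0.061) and TOP2A higher at 0.25 (SE 0.055), at adjusted p = 0.00758 and adjusted p = 0.00487 in edgeR, while MKI67, CDK1 and PCNA had log2 fold changes of -0.19, -0.19 and -0.15 and CCNB1 of 0.046, none of them called.

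The 3' UTRs of the family were searched for the 7-base word GTGTCAC, a word that earlier results of these data had brought up, so the counts below are a description. Of the 10 genes, MCM6 and MCM8 hold it, each once, and the other 8 do not. In MCM6 it begins at base 154 of the 1209-base 3' UTR, and in MCM8 at base 2688 of 4586. The sites are shown with 11 bases on either side and the word in capitals, from GENCODE 29 transcripts, with those of the genes named after them for comparison.
MCM6: gatggtcctatGTGTCACattcatcacag
MCM8: caattgtttctGTGTCACcattgctgatt
NAA15: atttttccacaGTGTCACaggtttgtaat
PMS1: ctttgtattatGTGTCACatggttatttt
RAB11A, first site: ttgtaattcttGTGTCACttttgtgtttt
RAB11A, other site: catatataacaGTGTCACcagacccagga

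The last 3 of these genes came from a search, in these same libraries, for the genes most like MCM6. Over the 6 libraries, among the 11096 tested genes that averaged 5 CPM or more, the highest Pearson correlations of log2 CPM with MCM6 were those of SLC39A9, NAA15, SLC11A2, RAB11A and PMS1, from 0.998 for SLC39A9 to 0.996 for PMS1. Such a correlation mostly restates a difference between the groups, since the 6 points form a high and a low cluster. NAA15, a subunit of an N-terminal acetyltransferase, was 1.65-fold higher in shTRIM21, the mismatch repair gene PMS1 1.74-fold and the recycling-endosome GTPase gene RAB11A 1.59-fold. The zinc transporter gene SLC39A9 was 1.33-fold higher and the iron transporter gene SLC11A2 1.16-fold, a call that 9 of 15 alternatives did not keep. Of these 5 genes, 3 hold GTGTCAC in the 3' UTR, RAB11A among them at 2 sites. All 5 were called higher, and the word itself came from earlier results of these data. Of all 1357 tested genes with a 3' UTR that were called higher, 253 hold the word.

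Over the whole table, 1152 of the tested genes with a 3' UTR in GENCODE 29 hold the word, 8.93% of them. Of these 22.0% were called higher in shTRIM21 and 8.42% lower, against 9.40% higher and 12.5% lower of the 11750 genes without it. The median log2 fold changes were 0.055 and -0.0044. MCM6 lay above 97.6% of the genes that hold the word, and MCM8 above 4.86% of them, and MCM8 was called lower. Genes with the word had longer 3' UTRs, with a median of 2940.5 bases against 955.5. By length class, the share called higher with and without the word was 29.4% against 7.88% in the class of shortest 3' UTRs, 24.8% against 10.1% in the class of MCM6 and 16.4% against 10.2% in the class of longest 3' UTRs, that of MCM8. The part of length was not tested.

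**Figure D4:**
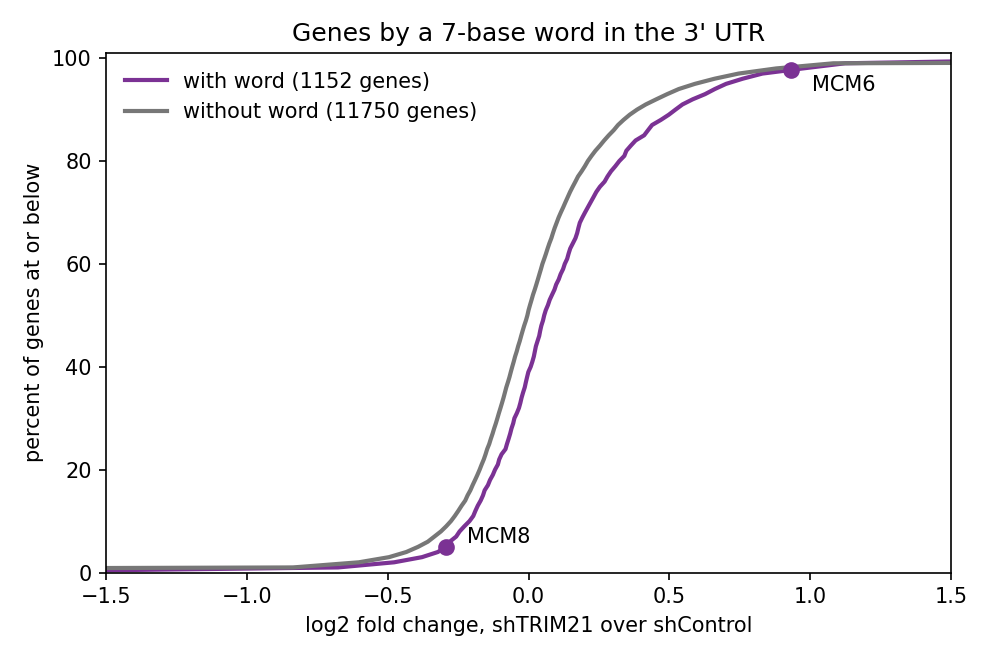
Cumulative percent of tested genes (vertical axis) at or below each log2 fold change of shTRIM21 over shControl, for the 1152 genes with the 7-base word in the 3' UTR (purple) and the 11750 without it (grey); the horizontal axis is limited to 1.5 on either side. The purple curve lies to the right over most of its range, with MCM6 near its top and MCM8 near its foot.

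The base after the word also differed between the MCM genes. In MCM6, NAA15 and PMS1 it is A, in MCM8 it is C, and in RAB11A it is T at one site and C at the other. Among genes holding the word once, 28.1% of the 288 followed by A were called higher, 22.2% of the 360 followed by T, 24.2% of the 66 followed by G and 14.1% of the 305 followed by C. None of the 34 loading, activation and unloading genes holds the word in the 3' UTR, and of the 6 cycling markers only TOP2A does, the one called higher. Of the 12 tested E2F and RB family genes E2F7 holds it, at a log2 fold change of -0.081 (SE 0.070), not called. The start region of MCM6 also holds GTGTCAC, at -66 from the start, as do 2.95% of all start regions on either strand. The guide strand of a short hairpin RNA can pair through its seed with short words in 3' UTRs, as a miRNA does. Hairpin sequences were not used here, so whether either hairpin matches the word was not tested, and a higher level of MCM6 in shTRIM21 cannot be told apart from a lower one in shControl without untransduced cells. The part of these sites in the difference of MCM6 was not tested.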

How the data were processed

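Total RNA of 6 RKO libraries, 3 per group, was sequenced after ribosomal RNA depletion, per the labels' protocols. The deposited files hold whole-number counts by gene symbol, 28278 rows in each library's table. The submitters' processing notes list TopHat2, hg38, edgeR 3.38.1 and limma 3.52.2, with no role stated. Counting program, annotation and strand setting: not given in the sources used here. Sample titles gave the groups and the numbers of the biological replicates. The source label names mouse tissue, but the organism, line and gene symbols are human.

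Counts were analysed with R 4.3.3 and edgeR 4.0.16: genes kept by filterByExpr at a minimum count of 10 and a total of 15 (15131 genes), TMM factors, and the quasi-likelihood F test over all genes with Benjamini-Hochberg adjustment, called under 0.05. Each SE is the absolute log2 fold change over √F. CPM are TMM-scaled. The fit was also run on simulated counts, drawn independently for each gene from its own dispersions. Such counts hold no effect shared by the genes of a library, so that run cannot judge such effects. Replicates of a group differed by more than sampling noise (chi-square per degree of freedom at least 15.1). Ribosomal RNA rows were kept in this check, so their uneven share between libraries enters it. Same-numbered libraries did not deviate together (r = -0.013, 0.0057 and -0.080), so the main fit has no block.

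Alternatives were RLE and upper-quartile factors, library sizes alone, ribosomal RNA rows left out, no filter, DESeq2 1.42.0, robust empirical Bayes, a replicate block, each library left out and shControl replicates 1 and 3 left out. Start regions and positions are from RefSeq (GRCh38.p14). Lengths and 3' UTRs are from GENCODE 29, 1 coding transcript per gene (principal isoform, then longest coding part). Named were the 10 MCM genes, TRIM21, called genes of the lists of helicase factors and E2F genes, the overlapping and nearest tested neighbours (1 is not reported here), and the 5 genes most correlated with MCM6. The markers of cycling cells, and the names of further neighbours and list members given without a call, were chosen for context. The members, lists and the 7-base word were chosen with earlier results of these data known.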

Additional observations from a re-analysis of the deposited data

How the results depend on the processing

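MCM6 kept its direction and its call under all 15 alternatives, and its excess over the other subunits moved by less than the spread between libraries, with 1.08 under the replicate block. With library sizes alone 1969 genes were called, 1 of them an MCM gene and 0 MCM genes lower, and 1 in the list of loading and activation genes. Without shControl replicates 1 and 3 these numbers were 1958, 3, 2 and 3. Leaving out 1 library at a time gave 1844 to 2592 called genes, the lowest without shTRIM21 replicate 2, with 2 to 5 MCM genes called, 1 to 4 MCM genes called lower and 3 to 5 genes of the list.

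Log2 fold changes turned sign with library sizes alone for MCM2 (0.028), MCM3 (0.12), MCM4 (0.081), MCM5 (0.059), MCM7 (0.015), MCM9 (0.025), MCMBP (0.17), UFD1 (0.012) and NPLOC4 (0.058); that setting moved all genes up together. MCMBP also turned with upper-quartile factors (0.0049) and, over the fits without 1 library, ran from -0.090 (without shControl replicate 1) to 0.0010 (without shControl replicate 2). Of the calls, 47.0% were higher with TMM, 62.1% with upper-quartile factors and 93.0% with library sizes alone. Over all alternatives 13.7% to 25.7% of genes with GTGTCAC in the 3' UTR were called higher, against 5.17% to 12.4% without it. DESeq2 called 6 MCM genes lower, adding MCM4 and MCM5. The replicate block called 2905 genes and 5 MCM genes, 4 of them lower, with 3 genes of the list called lower in place of 5; it ended the calls of UFD1 (-0.19), NPLOC4 (-0.15) and SLC11A2 (0.21) without moving their log2 fold changes. No library correlated best with its own number, so the replicate numbers gave no sign of pairing the libraries.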
